A study of Acomys cahirinus and Mus musculus with 10 samples.

Results

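The bone morphogenetic protein (BMP) genes described here are the ligand genes *Bmp2*, *Bmp4*, *Bmp5* and *Bmp7*, the genes of the secreted antagonists gremlin 1 (*Grem1*), noggin (*Nog*) and chordin-like 1 (*Chrdl1*), and the target genes *Id1* and *Id3*. They were chosen by name as 9 of the 13167 pairs of mouse and spiny mouse genes that had a value on every day in both species. Gene expression was measured by RNA-Seq in a ring of ear tissue from sexually mature females of the spiny mouse *A. cahirinus*, whose injured tissue is labelled regenerating, and of the mouse *M. musculus*, whose injured tissue is labelled fibrotic. Tissue came from uninjured ears (D0) and from ears collected on D5, D10, D15 and D20 after a punch of 4 mm through the pinna, from 3 animals for each species and day. The deposited tables hold, for each species, the comparison of each later day with D0, so the 4 comparisons of a species share their D0 animals. The ring held every cell type of the ear, and in such bulk tissue fewer cells of a type and less RNA per cell cannot be told apart.

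BMP ligands are secreted proteins that bind pairs of type I and type II receptors, which phosphorylate SMAD1, SMAD5 and SMAD9. These join SMAD4 in the nucleus and switch on target genes, of which the *Id* genes, inhibitors of basic helix-loop-helix transcription factors, are among the most direct. Gremlin, noggin and chordin-like proteins bind the ligands outside the cell and keep them from the receptors. In skin the pathway is best known for its part in the hair cycle, and in the skeleton for cartilage and bone formation.

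Each table gives a fold change against D0 and the posterior probability from EBSeq, an empirical Bayes test for RNA-Seq counts, that a gene was differentially expressed. A gene is written here as having risen or fallen only where this probability was at least 0.95, the cut for a false discovery rate of 0.05, and all other genes are given as values. Levels are normalised reads, that is, estimated reads divided by a size factor for each library, and the 2 species were normalised separately, so levels are compared within a species. The group means were solved from the fold changes, and because each library adds a fixed amount per read, the reads of the single libraries could be solved for all 18 D0 groups of the 9 genes and for 31 of their 72 later values. Libraries could not be tied to animals. The D15 group of *A. cahirinus* held the steps of only 2 libraries, one of which counted 2.11 times as much as the other, against at most 1.09 times among the libraries of any other later group. D15 in *A. cahirinus* is therefore given as 2 libraries, and the fold changes and posterior probabilities of that table rest on 1 library with about double weight. Group means summed to between 14454829 and 18203633 normalised reads in *A. cahirinus*, on each table's own scale, and the *M. musculus* sums lay between 7330083.9 and 9409079.7. With 3 libraries against 3, an exact two-sided permutation test cannot go below p = 0.10, so whether the groups overlapped is given in its place. The 2 libraries of D15 in *A. cahirinus* can lie apart from 3 D0 libraries more easily than 3 can.

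*Id3* rose in both species and stayed above D0 from D10 to D20, while *Bmp4* and *Bmp5* fell. *Grem1* fell in *A. cahirinus* on D5 and D10 and rose in *M. musculus* on D10, D15 and D20. *Nog* fell in *M. musculus* on all 4 days and was lower in every recovered *A. cahirinus* library, without passing the threshold there. *Bmp7* and *Id1* passed the threshold on no day in either species.

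The counts of genes that passed are given beside the shares among all 13167 pairs. In *A. cahirinus* on D5, 2 of the 9 genes rose, *Bmp2* and *Chrdl1*, where 31.1% of all pairs rose, and 3 fell, *Bmp4*, *Bmp5* and *Grem1*, where 11.5% of all pairs fell. On D10 in *A. cahirinus* only *Id3* of the 9 rose (21.5% of all pairs) and 2 fell, *Bmp4* and *Grem1* (11.7%). On D15 in *A. cahirinus* only *Id3* rose (18.6%) and 0 of the 9 fell (14.6%). On D20 in *A. cahirinus* *Id3* rose (12.9%) and *Bmp5* fell (15.3%).

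In *M. musculus* on D5, 0 of the 9 genes rose (23.4% of all pairs) and 3 fell, *Bmp4*, *Bmp5* and *Nog* (17.5%). On D10 in *M. musculus*, 2 rose, *Grem1* and *Id3* (21.6%), and 3 fell, again *Bmp4*, *Bmp5* and *Nog* (18.1%). On D15 in *M. musculus* *Grem1* and *Id3* rose (18.5%) and *Bmp5* and *Nog* fell (16.6%). On D20 in *M. musculus* *Grem1* and *Id3* rose (17.3%) and *Bmp5* and *Nog* fell (16.0%). With 9 genes, a single gene is 11.1% of the list, so none of these shares is read as particular to the list. The median log2 fold change of the 9 genes was -0.19 on D5, -0.24 on D10, -0.34 on D15 and -0.37 on D20 in *A. cahirinus*, beside 0.21, 0.10, 0.03 and -0.03 over all pairs. In *M. musculus* it was -0.56, -0.20, -0.06 and 0.04, beside 0.04, 0.05, 0.04 and 0.03 over all pairs.

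**Figure D1:**
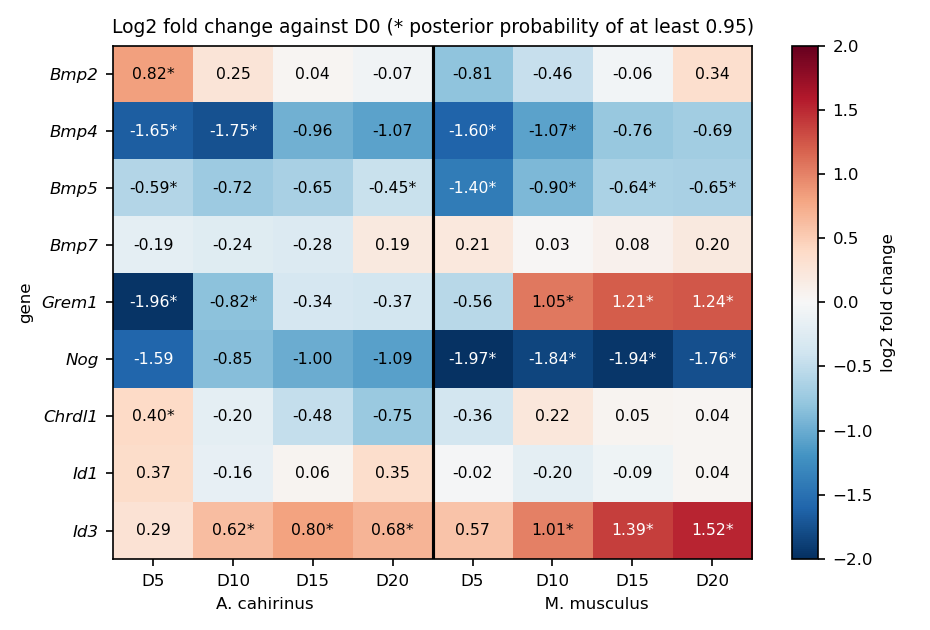
Log2 fold change against D0 of the 9 genes (rows) on each day in *A. cahirinus* and *M. musculus* (columns), with the colour scale in log2 units and asterisks at a posterior probability of at least 0.95. *Grem1* has asterisks on negative values in *A. cahirinus* (-1.96 and -0.82) and on positive values in *M. musculus* (1.05 to 1.24).

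The tissue was checked against marker genes of 8 cell types. Fibroblast markers (*Pdgfra*, *Pdgfrb*, *Col1a2* and *Lum*, 4 of 4 measured) summed to 13135 normalised reads at D0 in *A. cahirinus* and to between 16218 and 88589 later, and in *M. musculus* to 14549.8 at D0 and to between 66031 and 148614 later. All 4 rose on D10, D15 and D20 in both species. *Col1a2* held most of the D0 sum, with 8283 in *A. cahirinus* and 12224 in *M. musculus*, and reached at most 71319.8 and 138554. *Pdgfra* went from 1434 to at most 3886 in *A. cahirinus* and from 839.8 to at most 2466 in *M. musculus*. The sums therefore mainly follow *Col1a2*. Hair follicle markers (4 of 4 measured) summed to 8083 at D0 and 2559 to 4183 later in *A. cahirinus*, whereas in *M. musculus* they summed to 94.5 at D0, 53.2 on D5 and 2216 to 8089.9 from D10 on. *Krt71* held most of the *A. cahirinus* sum at D0, with 7840.4, and in *M. musculus* went from 33.0 at D0 to at most 7647. On D20 in *A. cahirinus* *Krt71* fell (-1.07) while *Lef1* rose (0.66). Of the hair follicle markers, *Shh* had a mean under 10 at D0 in both species and *Krt35* in *M. musculus*. Skeletal muscle markers fell on every day in both species, 2 of 2 measured in *A. cahirinus* and 4 of 4 in *M. musculus*. Fat markers (3 of 4 measured) fell on every day in *A. cahirinus* and on all but D20 in *M. musculus*. The summed macrophage markers (3 of 4 measured in *A. cahirinus*, 4 of 4 in *M. musculus*) lay between 1197 and 5894 in *A. cahirinus*, where *Adgre1* had a D0 mean under 10, and between 1572 and 4099.9 in *M. musculus*. In *A. cahirinus* the sums of endothelial (4 of 4 measured), cartilage (2 of 4) and epidermal (2 of 4) markers ranged from 1547 to 2743, from 2387 to 5189.7 and from 5747 to 22528. Their *M. musculus* sums (4, 3 and 4 measured) ranged from 1012 to 2185, from 2558 to 4643 and from 31803 to 100935. Markers within a type did not all move together. In *M. musculus* *Col2a1* rose and *Acan* fell on all 4 days, and *Comp* rose on D5 and D10. On D5 *Krt5* and *Krt14* rose there while *Krt15* and *Trp63* fell. In *A. cahirinus* *Comp* fell on all 4 days and *Acan* on D5 and D20, while *Krt15* rose on D5 and fell on D15 and D20. All measured macrophage markers rose on D5, D10 and D15 in both species. Part of these changes ran alongside those of the BMP genes, and their part in the BMP results was not tested.

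Among the ligands, *Bmp4* fell in both species. *Bmp4* encodes a ligand of the BMP2/4 subgroup made in skin by dermal papilla and mesenchymal cells, and its mouse gene lies at chr14:46383520-46390669 on the minus strand of GRCm38. In *A. cahirinus* the 3 D0 libraries held 67.1, 75.3 and 77.9 normalised reads, the D5 libraries 30.4, 20.4 and 19.3, and the D10 libraries 27.8, 19.9 and 17.9. The 2 D15 libraries held 35.5 and 42.6, and the D20 libraries 31.8, 40 and 33.2. Every later library therefore lay below every D0 library, lowest on D5 and D10. The log2 fold changes were -1.65 on D5 and -1.75 on D10, both past the threshold, and -0.96 on D15 and -1.07 on D20, which had posterior probabilities of 0.007 and 0.004. With both D15 libraries weighted equally the D15 value was -0.91.

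In *M. musculus*, the D0 libraries held 124, 127 and 125 normalised reads of *Bmp4*, and the group means were 41.4 on D5, 59.7 on D10, 74.2 on D15 and 77.9 on D20. The decrease was therefore deepest on D5 and smaller on each later day. Log2 fold changes were -1.60 on D5 and -1.07 on D10, which passed, and -0.76 on D15 and -0.69 on D20, which did not (posterior probabilities 0.005 and 0.001).

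The *A. cahirinus* gene was found by sequence, as the assembled component with the best match to the mouse transcript. For *Bmp4* the match had 93.7% identity over 1404 bases, but 2 of its 14 windows of 100 bases were identical to the mouse sequence, where all windows of the 8 other genes differed at 1 or more bases. How these windows of the contig arose was not tested. The first 150 coding bases, shown here, are also the same in both species (GRCm38 chr14:46385938-46386087, minus strand):
*Bmp4*, both species: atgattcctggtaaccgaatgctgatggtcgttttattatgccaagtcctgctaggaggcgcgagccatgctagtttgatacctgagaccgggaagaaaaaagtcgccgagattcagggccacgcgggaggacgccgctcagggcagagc

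*Bmp5*, a ligand of the BMP5/6/7 subgroup known from mouse mutants with short ears, fell in both species. In *A. cahirinus* its D0 libraries held 142, 175 and 172 normalised reads, and the later means were 109, 98.8, 104 and 119 on D5, D10, D15 and D20. The 2 D15 libraries, at 104 and 103, lay below all D0 libraries. It passed the threshold on D5 (log2 fold change -0.59) and D20 (-0.45), but not on D10 (-0.72, posterior probability 0.821) or D15 (-0.65, posterior probability 0.083, or -0.66 with the libraries weighted equally), although these decreases were larger. *M. musculus* D0 libraries held 325, 453 and 436 and the later means were 153, 217, 259 and 258. *Bmp5* passed on all 4 days there, with log2 fold changes of -1.40, -0.90, -0.64 and -0.65. The mouse gene lies at chr9:75775364-75900310 on the plus strand (GRCm38), and the *A. cahirinus* component matched with 89.7% identity over 2016 bases.

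*Bmp2*, the other ligand of the BMP2/4 subgroup, rose in *A. cahirinus* on D5 alone among the days and did not pass in *M. musculus*. In *A. cahirinus* its D0 libraries lay close together at 1004, 1018 and 1042 normalised reads, and the later means were 1798, 1213, 1049 and 976. The D5 log2 fold change of 0.82 passed, whereas those of D10, D15 and D20 were 0.25, 0.04 and -0.07. The *M. musculus* D0 libraries held 127, 136 and 122 and the D5 mean was 72.8. The D10 libraries, at 80.7, 101 and 97.5, lay below all D0 libraries, those of D15, at 131, 141 and 95.6, overlapped them, and those of D20, at 154, 156 and 177, lay above them. *M. musculus* *Bmp2* thus went from below D0 to above it, with log2 fold changes of -0.81 on D5, -0.46 on D10, -0.06 on D15 and 0.34 on D20. Posterior probabilities on these days were at most 0.128. The mouse gene lies at chr2:133552159-133562885 on the plus strand, and the match had 91.8% identity over 1542 bases.

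*Bmp7*, a ligand of the BMP5/6/7 subgroup, passed on no day. In *A. cahirinus* the D0 libraries held 263, 244 and 291 normalised reads and the D5 libraries, at 220.5, 248 and 231, overlapped them. The D15 libraries, at 215 and 225, lay below the D0 libraries, and the means of D10 and D20 were 225 and 303. The D0 libraries of *M. musculus* held 253, 188 and 193, and the later means of 244, 216, 223 and 242 all lay within that range. Log2 fold changes lay between -0.28 and 0.19 in *A. cahirinus*, with -0.27 on D15 when both libraries were weighted equally, and between 0.03 and 0.21 in *M. musculus*. The mouse gene lies at chr2:172868012-172940321 on the minus strand, and the match had 93.1% identity over 1673 bases.

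**Figure D2:**
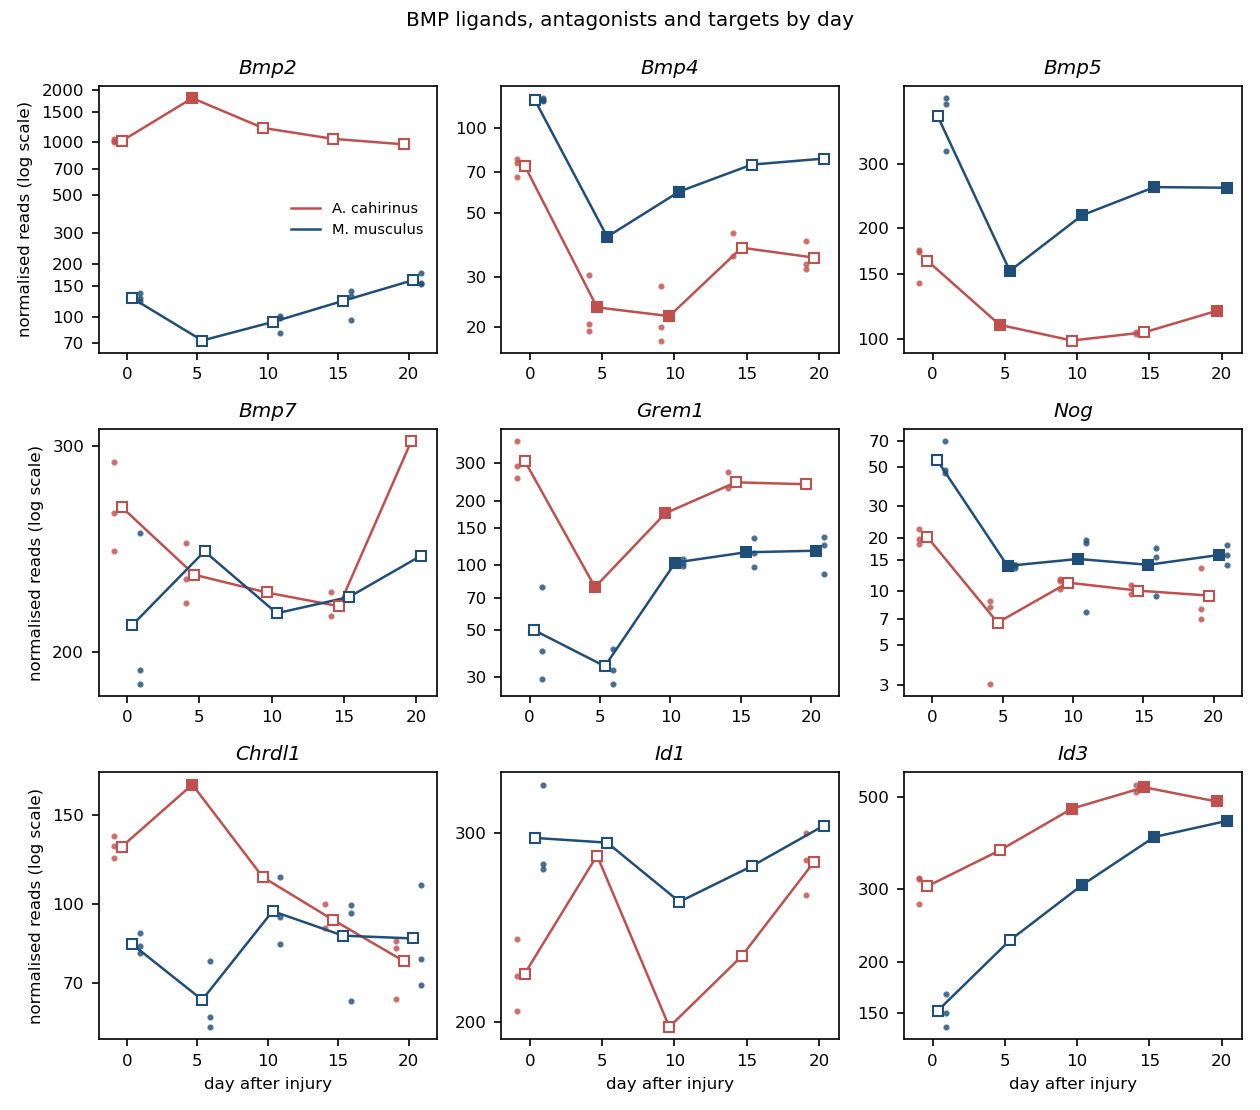
Normalised reads (log axis, a scale of its own in each panel) of the 9 genes by day after injury in *A. cahirinus* (red) and *M. musculus* (blue). Squares are group means, filled where the posterior probability was at least 0.95, and dots are single libraries where their reads could be recovered. *Grem1* stays below its D0 mean in *A. cahirinus* and lies above it from D10 on in *M. musculus*, and *Id3* has filled squares above D0 from D10 on in both.

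Among the antagonists, *Grem1* passed downwards in *A. cahirinus* and upwards in *M. musculus*, with both on the same day on D10 alone. On D5 its mean lay below D0 in both species. Calls in these directions, on any days, were found for 4.15% of all 13167 pairs. Gremlin 1 binds BMP2 and BMP4 and is known from limb development, where it keeps BMP signalling low in the outgrowing mesenchyme. In *A. cahirinus* the D0 libraries held 255, 291 and 379 normalised reads, the D5 mean was 79.1 and the D10 mean 175. The 2 D15 libraries, at 230.0 and 273, overlapped D0, and the D20 mean was 239. *Grem1* thus had its lowest level in *A. cahirinus* on D5 and was nearer to its D0 level on D15 and D20. The log2 fold changes of D5 (-1.96) and D10 (-0.82, posterior probability 0.974) passed, and those of D15 (-0.34, or -0.29 with both libraries weighted equally) and D20 (-0.37) did not.

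In *M. musculus* the D0 libraries held 79.6, 40 and 29.5 normalised reads of *Grem1*, from 61, 36 and 30 estimated reads, the widest relative spread of any D0 group (SD 53.2% of the mean). The D5 libraries, at 28.0, 40.7 and 32.6, overlapped D0. From D10 on all libraries lay above all D0 libraries: 99.4, 107 and 103 on D10, 114, 134 and 98.0 on D15, and 125, 90.9 and 136 on D20. The lowest of them, 90.9, was above the highest D0 library at 79.6. Log2 fold changes were -0.56 on D5, which did not pass, and 1.05, 1.21 and 1.24 on D10, D15 and D20, which did.

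The *A. cahirinus* minus *M. musculus* difference of the log2 fold change of *Grem1* was -1.40 on D5, -1.87 on D10, -1.55 on D15 and -1.61 on D20, a mean of -1.61. It was the largest mean difference of the 9 genes, and since the species were analysed separately it was not tested. The *A. cahirinus* component matched the mouse *Grem1* transcript (chr2:113746164-113758646, minus strand) with 89.7% identity over 1362 bases. A coding stretch of 150 bases (coding bases 85 to 234, GRCm38 chr2:113749921-113750070, minus strand) is shown to tell the genes of both species apart, with the 13 bases that differ in capitals, 11 of them at the third codon base:
*Grem1*, mouse: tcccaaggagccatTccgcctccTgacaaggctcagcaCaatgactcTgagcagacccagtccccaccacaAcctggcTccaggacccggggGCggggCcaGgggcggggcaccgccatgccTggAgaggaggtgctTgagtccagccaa
*Grem1*, spiny mouse: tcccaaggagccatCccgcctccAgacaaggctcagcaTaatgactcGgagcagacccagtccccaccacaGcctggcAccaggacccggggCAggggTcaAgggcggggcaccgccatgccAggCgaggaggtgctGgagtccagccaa

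*Nog* encodes noggin, an antagonist that binds BMP2, BMP4 and BMP7 and that in skin is known for releasing hair follicle growth from BMP. It fell in *M. musculus*, while in *A. cahirinus* its counts were low. In *M. musculus* the D0 libraries held 69.3, 47.8 and 46.2 normalised reads. The D5 libraries held 14.0, 14.1 and 13.6, the D10 libraries 19.4, 7.63 and 18.6, the D15 libraries 17.5, 15.6 and 9.41, and the D20 libraries 18.1, 14.0 and 16.0. All 12 later libraries lay below all D0 libraries, and the later group means stayed between 13.9 and 16.0. Log2 fold changes of -1.97, -1.84, -1.94 and -1.76 passed on D5, D10, D15 and D20.

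In *A. cahirinus* the estimated reads of *Nog* were few, 20, 21 and 29 in the D0 libraries, or 19.7, 18.4 and 22.4 normalised. The D5 libraries held 8.87, 8.14 and 3.04, the D10 libraries 11.5, 10.3 and 11.7, the 2 D15 libraries 9.68 and 10.9, and the D20 libraries 7.95, 13.5 and 6.98. All 11 later libraries lay below all D0 libraries. The log2 fold changes were -1.59, -0.85, -1.0 (-0.97 with both libraries weighted equally) and -1.09, yet the posterior probability was under 0.01 on each day. Taking in the reads of all 3 components whose best mouse match was *Nog* gave -0.94 on D20.

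The *Nog* component was the closest to its mouse counterpart (chr11:89300638-89302332, minus strand), with 95.8% identity over 1321 bases. Coding bases 10 to 159 (GRCm38 chr11:89301862-89302011, minus strand) are shown for comparison with *Grem1*, and the 4 bases that differ, all at the third codon base, are in capitals:
*Nog*, mouse: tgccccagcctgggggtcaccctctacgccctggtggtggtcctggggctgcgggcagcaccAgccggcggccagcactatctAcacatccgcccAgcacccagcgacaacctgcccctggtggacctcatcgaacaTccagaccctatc
*Nog*, spiny mouse: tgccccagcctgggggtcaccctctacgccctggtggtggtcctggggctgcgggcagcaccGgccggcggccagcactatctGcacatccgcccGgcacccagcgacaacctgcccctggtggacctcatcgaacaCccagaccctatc

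*Chrdl1* encodes chordin-like 1, a secreted antagonist that binds BMP4. It rose in *A. cahirinus* on D5, from D0 libraries of 130.3, 136 and 123 normalised reads to a mean of 172 (log2 fold change 0.40, posterior probability 0.982). Its later *A. cahirinus* levels were lower, with a D10 mean of 113, D15 libraries of 89.5 and 100, and D20 libraries of 64.9, 82.0 and 84.7. The D15 and D20 libraries lay below all D0 libraries, but the log2 fold changes of -0.48 (-0.45 with both libraries weighted equally) and -0.75 had posterior probabilities under 0.01. The *M. musculus* D0 libraries held 87.5, 80.0 and 82.6. The D5 libraries, at 57.2, 77.2 and 59.8, lay below them, whereas those of D10 (94.4, 83.3 and 113), D15 (99.4, 96.1 and 64.3) and D20 (69.3, 109 and 78.0) overlapped them. No *M. musculus* day passed, with log2 fold changes of -0.36, 0.22, 0.05 and 0.04. The mouse gene lies at chrX:143285674-143394262 on the minus strand, and the match had 91.9% identity over 1475 bases.

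Of the targets, *Id3* rose in both species. In *A. cahirinus* its D0 libraries held 317, 319 and 275 normalised reads and the later means were 371, 468, 527 and 487, and both D15 libraries, at 535 and 512, lay above D0. The D5 log2 fold change of 0.29 did not pass, and those of D10 (0.62), D15 (0.80, or 0.79 with both libraries weighted equally) and D20 (0.68) did. In *M. musculus* the D0 libraries held 167, 150 and 139 and the later means were 225, 306, 399.8 and 437. The level was higher on each successive day there, with log2 fold changes of 0.57 on D5, which did not pass, and 1.01, 1.39 and 1.52 on D10, D15 and D20, which did. The *A. cahirinus* minus *M. musculus* difference was negative on all 4 days and averaged -0.53 on the log2 scale, and it was not tested.

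The *A. cahirinus* *Id3* component matched the mouse transcript (chr4:136143497-136145755, plus strand) with 91.7% identity over 907 bases. Coding bases 31 to 180 (GRCm38 chr4:136143909-136144058, plus strand) are shown because *Id3* is the target that rose in both species. The 12 bases that differ are in capitals, 5 at the first and 7 at the third codon base:
*Id3*, mouse: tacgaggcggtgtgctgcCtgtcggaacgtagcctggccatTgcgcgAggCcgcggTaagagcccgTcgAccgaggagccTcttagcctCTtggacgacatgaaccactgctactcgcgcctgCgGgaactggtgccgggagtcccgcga
*Id3*, spiny mouse: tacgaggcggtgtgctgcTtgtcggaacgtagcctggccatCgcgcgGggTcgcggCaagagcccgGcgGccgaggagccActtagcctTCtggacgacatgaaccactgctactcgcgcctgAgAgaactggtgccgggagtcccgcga

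*Id1*, whose product is a close relative of ID3, passed on no day. In *A. cahirinus* the D0 libraries held 239, 221 and 205 normalised reads and the later means were 286, 198, 230.4 and 282. The D20 libraries, at 283, 263 and 300.3, lay above all D0 libraries, yet the log2 fold change of 0.35 had a posterior probability under 0.01. The other *A. cahirinus* values were 0.37, -0.16 and 0.06 on D5, D10 and D15. The D0 libraries of *M. musculus* held 333, 281 and 278 and the later means 294, 259, 279.5 and 305, with log2 fold changes between -0.20 and 0.04. The mouse gene lies at chr2:152736251-152737410 on the plus strand, and the match had 92.6% identity over 501 bases.

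At D0 the order of the genes, as normalised reads per kb of reference transcript, differed between the species in its first places. In *A. cahirinus* *Bmp2* was first at 342 (libraries 336 to 349), followed by *Id1* at 229, *Grem1* at 158, *Id3* at 151, *Bmp7* at 77.8, *Bmp5* at 67.5, *Bmp4* at 49.1, *Chrdl1* at 48.2 and *Nog* at 15.4. Neighbouring libraries overlapped between *Grem1* and *Id3*, *Bmp7* and *Bmp5*, and *Bmp4* and *Chrdl1*, so these neighbours could not be ordered. In *M. musculus* *Id1* was first at 318, followed by *Bmp5* at 160.1, *Id3* at 159.5, *Bmp4* at 62.8, *Bmp7* at 57.6, *Bmp2* at 35.9, *Grem1* at 30.3, *Nog* at 28.3 and *Chrdl1* at 19.9. The libraries overlapped there between *Bmp5* and *Id3*, *Bmp4* and *Bmp7*, *Bmp2*, *Grem1* and *Nog*, and *Grem1* and *Chrdl1*, so the places from *Bmp2* down were not fully resolved. The lengths were those of the assembled contigs in *A. cahirinus* and of the transcripts in *M. musculus*, and the order was not compared across species by a test. For *Id3* the contig had 2005 bases and the mouse transcript 953, so the place of *Id3* in *A. cahirinus* depends on the length taken.

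The remaining mean differences in log2 fold change over the 4 days, *A. cahirinus* minus *M. musculus*, were 0.75 for *Nog*, 0.51 for *Bmp2*, 0.30 for *Bmp5*, 0.22 for *Id1*, -0.24 for *Chrdl1*, -0.26 for *Bmp7* and -0.33 for *Bmp4*. The difference had one sign on all 4 days for *Bmp4*, *Bmp7*, *Grem1*, *Nog*, *Id1* and *Id3*. Among these were values as small as -0.05 for *Bmp4* on D5, -0.01 for *Bmp7* on D20 and 0.04 for *Id1* on D10. The 4 days share their D0 animals, so their signs are not separate observations. *Bmp2* differed most on D5, by 1.63, and least on D15, by 0.10. These differences are descriptions and were not tested.

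Whether a gene passed was not set by the size of its change alone. Of the 31 later values with recovered libraries, 24 did not overlap D0, and of these 10 passed and 14 did not, while 0 of the 7 overlapping ones passed. For comparison, among the values of 1000 of the 13167 pairs in each species, 59.4% of 1636 recovered *A. cahirinus* values and 57.1% of 1281 recovered *M. musculus* values did not overlap D0, and 42.0% and 51.0% of these passed. *Nog* in *A. cahirinus* accounted for 4 of the 14, *Bmp4* in *A. cahirinus* for 2, *Chrdl1* for 2 in *A. cahirinus* and 1 in *M. musculus*, *Bmp2* in *M. musculus* for 2, and *Bmp5*, *Bmp7* and *Id1* in *A. cahirinus* for 1 each. Where the variance between libraries was under the mean, 2 of the 13 values that did not overlap D0 passed and 11 had a posterior probability under 0.01. Where it was at or over the mean, 8 of 11 passed and 2 had a posterior probability under 0.01. These 8 were values of *Nog* and *Grem1* in *M. musculus* and of *Id3* on D15 in *A. cahirinus*. Values of the same gene and species share their D0 libraries, whose spread is part of the variance on each day. The counts are therefore not of separate observations. Among the 24, the D15 values of *Bmp4*, *Bmp5*, *Bmp7*, *Nog*, *Chrdl1* and *Id3* in *A. cahirinus* rest on 2 libraries. The variance of *Nog* was 0.147 to 0.558 of the mean in *A. cahirinus*, where *Nog* never passed. In *M. musculus*, where *Nog* always passed, the variance was 2.41 to 3.00 of the mean. Its estimated reads at D0 (20, 21 and 29 in *A. cahirinus*, 53.08, 43 and 47 in *M. musculus*) differed too. So did its log2 fold changes (-0.85 to -1.59 and -1.76 to -1.97). Which of these differences the calls followed was not tested.

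**Figure D3:**
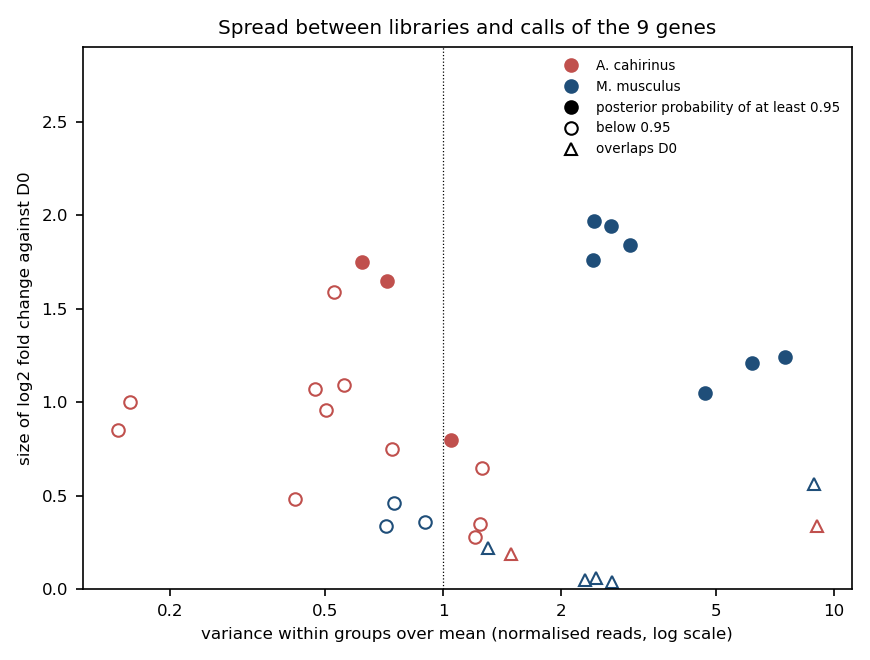
Size of the log2 fold change against D0 (vertical) and variance between libraries within groups divided by the mean (horizontal, log axis) for the 31 values of the 9 genes with recovered libraries in *A. cahirinus* (red) and *M. musculus* (blue). Filled circles passed a posterior probability of 0.95, open circles did not, and triangles overlapped D0. To the left of 1, where the variance is under the mean, 2 of 13 circles are filled, and to the right 8 of 11. Values of the same gene and species share their D0 libraries.

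The same split was present among those ortholog pairs whose reads per library could be recovered. Values of the same pair on several days likewise share their D0 libraries. The higher group mean lay from 10 to 100, the lower was over 1, and the log2 fold change was at least 1 in size. Of the values that did not overlap D0, 26.9% of 800 in *A. cahirinus* (D15 left out) passed where the variance was under the mean. Where it was at or over the mean, 67.3% of 817 passed. In *M. musculus* these shares were 25.8% of 890 and 73.0% of 1393. In the first class 59.4% of the *A. cahirinus* values had a posterior probability under 0.01, against 18.7% in the second, and among *M. musculus* values the shares were 60.2% and 15.4%. The classes were not matched for level or size of change, and what the split followed was not tested. Of the 14 values of the BMP genes that did not overlap D0 and did not pass, 3 lie within these limits. They are those of *Nog* on D5 and D20 and of *Bmp4* on D20 in *A. cahirinus*. The split over these pairs was therefore not measured for the other 11.

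The other genes of the pathway were described from a list of 50, of which 38 had a value in *A. cahirinus* and 43 in *M. musculus*. In *A. cahirinus* 4 rose and 13 fell on D5 (10.5% and 34.2% of those measured, beside 31.1% and 11.5% of all pairs). On D10 5 rose and 10 fell (13.2% and 26.3%, beside 21.5% and 11.7%), on D15 6 rose and 10 fell (15.8% and 26.3%, beside 18.6% and 14.6%), and on D20 5 rose and 10 fell (13.2% and 26.3%, beside 12.9% and 15.3%). In *M. musculus* 7 rose and 9 fell on D5 (16.3% and 20.9%, beside 23.4% and 17.5% of all pairs). On D10 10 rose and 7 fell (23.3% and 16.3%, beside 21.6% and 18.1%), on D15 13 rose and 5 fell (30.2% and 11.6%, beside 18.5% and 16.6%), and on D20 14 rose and 3 fell (32.6% and 6.98%, beside 17.3% and 16.0%). The median log2 fold change of the list on D5, D10, D15 and D20 was -0.33, -0.23, -0.12 and -0.07 in *A. cahirinus*. In *M. musculus* the corresponding medians were -0.15, 0.17, 0.24 and 0.47.

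Of the 12 measured genes of extracellular antagonists and modulators other than the 3 above, a group that also holds genes not known as plain antagonists (*Kcp*, *Twsg1*, *Bmper* and *Crim1*), 2 rose and 1 fell on D5 in *M. musculus*, 5 rose and 1 fell on D10, 7 rose and 1 fell on D15, and 5 rose and 0 fell on D20. In *A. cahirinus* 2 rose and 5 fell on D5, and 3 rose and 3 fell on each of the later days. As shares the *M. musculus* rises were 16.7%, 41.7%, 58.3% and 41.7% and the falls 8.33%, 8.33%, 8.33% and 0%, and in *A. cahirinus* the rises were 16.7% and then 25.0% and the falls 41.7% and then 25.0%, to be read beside the shares of all pairs just given for each day. The difference between the species was not tested. *Kcp*, a secreted modulator of BMP signalling, rose from D10 on in both, with log2 fold changes averaging 1.48 over the 4 days in *A. cahirinus* and 2.96 in *M. musculus*. *Crim1*, a transmembrane protein that binds BMPs, fell on all 4 days in *A. cahirinus* and on D5, D10 and D15 in *M. musculus* (means -0.77 and -0.52), and *Twsg1*, a modulator that binds chordin and BMP, rose in *A. cahirinus* on all 4 days (mean 0.79) and passed on no day in *M. musculus* (mean 0.10).

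Of these extracellular antagonists and modulators, 5 passed downwards in *A. cahirinus* and upwards in *M. musculus*, though not always on the same days, as did 4.15% of all 13167 pairs. *Fst*, encoding the activin and BMP binding protein follistatin, fell in *A. cahirinus* on D10, D15 and D20 (-0.87, -0.96 and -0.64) and rose in *M. musculus* on D5, D10 and D15 (0.69, 0.97 and 0.83). *Sostdc1*, a BMP and WNT antagonist of skin appendages, fell in *A. cahirinus* on all 4 days (-1.73, -1.47, -1.69 and -1.05) and rose in *M. musculus* on D15 alone (0.54). *Chrd*, encoding chordin, fell in *A. cahirinus* on D5 (-1.11), with 0.03, 0.22 and 0.02 on D10, D15 and D20, and rose in *M. musculus* on these 3 days (1.54, 1.40 and 1.84). *Nbl1*, an antagonist of the DAN family to which gremlin also belongs, fell in *A. cahirinus* on D5 (-0.84), with 0.41, 0.39 and 0.29 afterwards, and rose in *M. musculus* on D10, D15 and D20 (1.01, 1.03 and 1.52). *Bmper*, encoding a modulator that binds BMPs, fell in *A. cahirinus* on D5 (-0.83), with 0.25 and 0.36 on D15 and D20, and rose in *M. musculus* on these 2 days (0.68 and 1.09). On the days on which they passed in *M. musculus*, these last 3 genes were thus not below D0 in *A. cahirinus*, unlike *Grem1* on D10. Calls the other way round, upwards in *A. cahirinus* and downwards in *M. musculus*, were found for 5.24% of all pairs and for 0 of the pathway genes. Beyond this group, lower calls in *A. cahirinus* and higher ones in *M. musculus* were also found for the receptor gene *Acvrl1* (mean log2 fold change -0.25 in *A. cahirinus* and 0.97 in *M. musculus*), the transducer gene *Smad5* (-0.15 and 0.33) and the target *Msx1* (-0.51 and 0.29). Of the 4 endothelial markers, 1, 1, 2 and 3 fell and 0 rose on D5, D10, D15 and D20 in *A. cahirinus*, while 4, 2, 3 and 3 rose and 0 fell in *M. musculus*. *Pecam1* among them had means of -0.55 and 0.79 beside those of *Acvrl1*, which is known from endothelial cells, and their part in its values was not tested.

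Among the ligands of the list, *Gdf10* fell in *A. cahirinus* on all 4 days (mean -1.63) and passed on no day in *M. musculus* (mean 0.26). *Bmp8a* rose in *M. musculus* on D10, D15 and D20 from a D0 mean of 0.741 normalised reads to at most 20.8, and its reads may be split with its near copy *Bmp8b*. Among the receptors, *Acvr2a* fell on all 4 days in both species (means -0.59 and -0.41), and *Bmpr2* fell on all 4 days in *M. musculus* and on D15 and D20 in *A. cahirinus* (means -0.32 and -0.15). *Acvr1* rose on D10, D15 and D20 in *A. cahirinus* and on D5, D15 and D20 in *M. musculus* (means 0.52 and 0.49), and *Acvr2b* fell on D5, D10 and D15 in *A. cahirinus* (mean -0.92) and passed on no day in *M. musculus* (mean -0.14). Of the SMAD genes, *Smad9* fell in *M. musculus* on D5, D10 and D15 (-2.16, -1.67 and -1.37) and passed on no day in *A. cahirinus* (mean -0.43). *Smad4* rose slightly in *A. cahirinus* from D10 on (0.21, 0.23 and 0.22) and passed on no day in *M. musculus* (mean 0.30). Of the 7 measured targets other than *Id1* and *Id3* in *A. cahirinus*, 0 rose on any day, and 3, 2, 2 and 1 fell on D5, D10, D15 and D20 (42.9%, 28.6%, 28.6% and 14.3%). Of the 8 in *M. musculus*, 1, 1, 1 and 2 rose (12.5%, then 25.0% on D20) and 4, 2, 1 and 1 fell (50.0%, 25.0%, 12.5% and 12.5%). These shares are to be read beside those of all pairs above. In *M. musculus* the target that rose on D5, D10 and D15 was *Runx2*, and on D20 *Runx2* and *Msx1* rose. *Runx2* had no value in *A. cahirinus*, so the targets counted in the 2 species are not the same set. *Id4* fell on all 4 days in both species (means -0.96 and -1.08), opposite to *Id3*, and *Runx2*, which had a value in *M. musculus* only, rose there on all 4 days (mean 1.97).

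**Figure D4:**
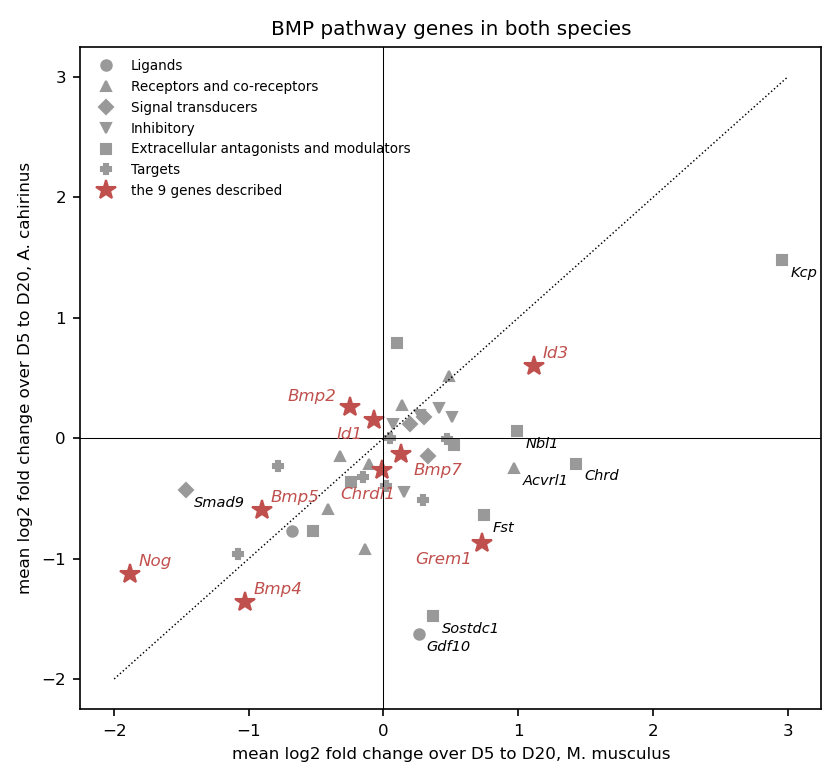
Log2 fold change, averaged over D5, D10, D15 and D20, of the pathway genes whose mean reached 10 in each species (1 gene is not shown), *A. cahirinus* (vertical) against *M. musculus* (horizontal), with symbols for roles, red stars for the 9 genes described and a dotted line of equality. *Grem1* lies at -0.87 and 0.73, below the line and nearest to *Fst*, while *Nog*, *Bmp4* and *Bmp5* lie at lower left and *Id3* at upper right.

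The ortholog pairs whose 8 log2 fold changes lay nearest to each gene were sought by Euclidean distance among the 11603 pairs whose mean reached 10 in each species. They were *Cntfr* (0.70) and *Mn1* (0.96) for *Grem1*, *Dusp10* (0.66) for *Bmp4*, *Kansl1l* (0.33) and *AW146154* (0.47) for *Bmp5*, and *Ablim3* (0.67) and *Fam13a* (0.68) for *Nog*. *St6galnac2* (0.47) and *Gm14636* (0.51) were nearest to *Bmp2*, *Lage3* (0.33) and *Alkbh8* (0.35) to *Bmp7*, *Cryl1* (0.54) and *F2rl1* (0.58) to *Chrdl1*, and *Foxd2os* (0.34) and *Ppox* (0.38) to *Id1*. *Id3* was nearest to *Pdgfrb* (0.46), one of the fibroblast markers above, and to *Adgrl1* (0.47). *Pdgfrb* had log2 fold changes of 0.22, 0.89, 1.01 and 0.89 in *A. cahirinus*, where *Id3* had 0.29, 0.62, 0.80 and 0.68. Its *M. musculus* values of 0.70, 1.11, 1.30 and 1.39 stood beside 0.57, 1.01, 1.39 and 1.52 for *Id3*. *Mn1*, next to *Grem1*, was likewise higher in *M. musculus* from D10 on (1.0, 1.33 and 1.35) and below D0 on D5 and D10 in *A. cahirinus* (-1.29 and -0.59). All groups in these distances share the D0 animals of their species.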

How the data were processed

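RNA-Seq libraries of ear tissue were assembled, aligned and counted by the authors, who mapped reads of *A. cahirinus* to a *de novo* transcriptome (Trinity) and those of *M. musculus* to mm10 gene annotations with Bowtie and RSEM. The deposited tables hold EBSeq output for each day against D0: posterior probabilities, given by the authors as scores from 0 to 1, and 2 fold changes, which are linear ratios of normalised means. The deposited reference sequences and BLASTN table of the authors give identity in percent, bit scores and, as other values, names and sequences. No table of values per sample was used here, and per the labels each group is 1 GEO sample.

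*M. musculus* gene numbers were named by aligning the 61642 reference transcripts to the transcripts of GENCODE M21 (minimap2 2.31), of which 53444 matched. Their GRCm38 positions were then tied to the 1992 numbers whose gene the study lists. Of the pairs held out in turn, 244 were not placed and 1736 of 1748 placed ones were right. Components of *A. cahirinus* were assigned by top bit score below 99% identity, and all 9 matches were reciprocal. Log2 fold changes are the first fold change of each table, turned so that positive means higher after injury. Group means were solved from both fold changes, which add 0.01 normalised reads to each mean or a constant of their own, and set on the scale of the D5 table. The D0 means of the 4 tables then differed by at most 0.00437 on the log2 scale. Reads per library were solved where 1 combination of reads matched and under 0.05 chance matches were expected. Solving D0 from 1 table gave the reads of all 4 together in 522 of 522 *A. cahirinus* and 360 of 360 *M. musculus* genes, and the method was tested on simulated data. No test beyond the authors' posterior probability was run. Depth per library is known only relative to the other libraries of a comparison, through the size factors. In *M. musculus* these were 0.628, 0.738 and 0.834 at D0 and 1.312, 1.398 and 1.455 on D10. In *A. cahirinus* they were 1.013, 1.142 and 1.296 at D0 and 0.789, 0.983 and 0.985 on D5. Whether this uneven depth affected the calls was not tested. There were 3 libraries a group, or 2 for D15 in *A. cahirinus*.

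The 9 genes, the pathway and marker lists and the alternatives were chosen with earlier results of these data known. Named genes of the pathway list have a mean of at least 10 and were called on at least 3 days in one species (the 5 highest and 5 lowest by mean), or calls in opposite directions between species. Values named beyond that rule were chosen after they were seen. A gene of the pathway list and a nearest pair that the rules name are not reported here. Of the list, *Bmp3*, *Gdf6*, *Bmpr1b*, *Eng*, *Rgmb* and *Fstl1* were not placed in either species. The alternatives were another cut, a least mean, a least fold change, the second fold change, a pseudocount of 1, other components, centring and equal library weights. Python 3.11.15, NumPy 2.4.6, pandas 2.3.3, numba 0.67.0, Biopython 1.88 and matplotlib 3.10.9 were used.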

Additional observations from a re-analysis of the deposited data

How the results depend on the processing

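Of 271 values under alternative settings, 266 were rated as unchanged and 0 reversed. Counts were rated by a limit of 1.5 times. Species differences, medians, summed components and equal library weights were rated by the spread between libraries. The second fold change and the pseudocount of 1 keep each posterior probability and cannot turn the sign of a fold change. Their 72 log2 fold changes each could therefore not be rated as changed. The same held for the 4 counts with the component of the highest D0 mean. At a posterior probability of 0.99 the genes called fell from 5 to 4 on D5 and from 3 to 2 on D10 in *A. cahirinus*, and from 4 to 3 on D15 in *M. musculus*, with the loss of *Chrdl1*, *Grem1* and *Bmp5* on these days. A least log2 fold change of 1 in size, which can only lower a count, left in *A. cahirinus* 2 genes on D5, 1 on D10, 0 on D15 and 0 on D20, and moved no *M. musculus* count by over 1.5 times. Summing all components with *Nog* as best match moved its D20 value in *A. cahirinus* from -1.09 to -0.94, and the cause was not tested. The second fold change of the tables and a pseudocount of 1 moved log2 fold changes by at most 0.13. Weighting both D15 libraries of *A. cahirinus* equally was chosen after seeing the data and kept the direction of all 7 values it could be run on. The component with the highest D0 mean was already the one used for each of the 9 genes.

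No paired analysis was possible because the tables give 1 GEO sample a group and the recovered libraries carry no animal or replicate number. Leaving out a replicate was not run, since EBSeq cannot be refitted from these tables. Depth was low for *Nog* in *A. cahirinus*, with 3 to 29 estimated reads in each library.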
